A study of Mus musculus with 8 samples.

Results

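Adipokines are the hormones and signalling proteins that fat secretes, and 10 genes were examined here, 6 adipokines (Lep, Adipoq, Retn, Nampt, Rarres2 and Rbp4) and 4 receptors (Lepr, Adipor1, Adipor2 and Cdh13). They were chosen by name from the 31053 genes of the count table, with earlier results of these data known. Lep fell in brown adipose tissue (BAT) of Cd36KO mice, from 110 ± 51.6 to 19.8 ± 6.98 normalized counts, past the test in DESeq2 and edgeR but not in limma or with white depot markers, which fell too, as a covariate. Rarres2 was at 384 ± 115 against 202 ± 33.6 (SD, n = 4 per group), a difference that passed in DESeq2 but not in edgeR and was lost in 4 of 8 fits that each left out a library. Adipoq, the most abundant member, and the adiponectin receptors did not pass over all 8 libraries, but Adipoq passed as lower without WT replicate 1. With the white depot covariate, Adipoq and Adipor2 passed as higher. That covariate did not overlap between the groups, so marker level and genotype cannot be told apart.

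BAT burns fat to make heat. Its RNA was sequenced in bulk in 8 libraries, 4 of WT and 4 of Cd36KO mice of the C57BL6/J strain, labelled with an age of 8 weeks and no treatment. The comparison asked how BAT gene expression changes when CD36, a receptor for fatty acids and modified lipoproteins, is lost. Cd36KO is all that the labels say of the genotype, while the study describes both a germline deletion and a floxed Cd36 deleted by Cre under the Csf1r promoter, which acts in macrophages and other myeloid cells, and attributes the BAT transcriptome to the latter. The study gives the age of those mice as that of the labels beside the BAT transcriptome and as later in its methods, and states that mice were male. In these libraries, however, Xist, transcribed from the inactive X chromosome, had 772 to 1588 counts in every library and Kdm5d, Uty and Eif2s3y, genes of the Y chromosome, had 0, and Ddx3y, also on it, had 3 counts in 1 library. The labels name the cell type as the stromal vascular fraction, which lacks mature adipocytes, but Plin1, the lipid droplet coat of adipocytes, had 2297 ± 921 normalized counts in WT against 1682 ± 125 in Cd36KO (SD, n = 4 per group), so the libraries are called BAT here.

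Libraries held 2679785 to 4097953 counts, and a normalized count is a count divided by the library's size factor. One Cd36KO library carries no replicate number in its column and is called the unnumbered library. Cd36 itself (ENSMUSG00000002944) had 2918 ± 454 normalized counts in WT against 2087 ± 216 in Cd36KO (SD, n = 4 per group), lower in every Cd36KO library but abundant in each, with a log2 fold change of -0.48 and a DESeq2 adjusted p of 0.0602. WT replicate 1 stood apart. Its 12 skeletal muscle markers summed to 72169 normalized counts, against 1202 to 12999 in WT replicates 2 to 4 and 377 to 8231 in Cd36KO. Its 10 white depot markers, genes that are high in white fat such as Hoxc8, summed to 724 against 3261 to 4419 in the other WT libraries. Results are therefore given with and without it where it decides them.

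Leptin, encoded by Lep, is made by adipocytes in proportion to their fat stores and acts on the brain through the long form of its receptor, Lepr, to restrain feeding. It is much higher in white than in brown fat. Adiponectin (Adipoq) circulates as multimers and acts through Adipor1 and Adipor2, and binds the cadherin Cdh13 on vessels and muscle. Resistin (Retn), chemerin (Rarres2) and retinol-binding protein (Rbp4) are further adipocyte products, and Nampt is a secreted protein and, inside cells, the rate-limiting enzyme of NAD salvage.

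The sequences before the transcription starts of Lep and Retn are shown because these members had the lowest log2 fold changes of those tested, and because C/EBP alpha, a transcription factor of mature adipocytes, is known to act on the Lep promoter. Both are the 250 bases upstream of the RefSeq start on build GRCm38.p6, on the plus strand, chr6:29059971-29060220 for Lep and chr8:3655520-3655769 for Retn. Capitals mark a match to the C/EBP letters TTNNGNAA.

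Lep: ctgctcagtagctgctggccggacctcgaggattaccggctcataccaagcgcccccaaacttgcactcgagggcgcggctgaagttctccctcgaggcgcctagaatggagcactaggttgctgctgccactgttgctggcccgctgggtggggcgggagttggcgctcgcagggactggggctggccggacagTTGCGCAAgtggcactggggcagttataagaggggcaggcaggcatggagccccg

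Retn: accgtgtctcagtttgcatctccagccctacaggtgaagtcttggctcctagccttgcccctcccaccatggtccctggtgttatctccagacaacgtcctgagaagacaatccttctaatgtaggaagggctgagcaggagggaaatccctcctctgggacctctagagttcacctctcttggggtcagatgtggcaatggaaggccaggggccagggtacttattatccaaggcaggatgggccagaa

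The Lep window held TTGCGCAA at -55 to -48 from the start, a palindrome read on both strands, and a GC box (GGGCGG) at -98 to -93. The Retn window held no match to the C/EBP, TATA box (TATAAA), E-box (CACGTG), GC box or nuclear receptor (AGGTCA) letters on either strand. Promoters were matched for 8 of the 10 members, not for Cdh13 or Rarres2. Lepr, Adipor1 and Rbp4 have 2 promoters each and were counted where either held the letters, whereas the shares of all promoters count each promoter alone. The C/EBP letters were found for 4 of these 8 (Lep, Adipoq, Adipor2 and Rbp4), and in 36.8% of 32851 promoters of the same length. GC boxes were found for 5 of 8 members (32.7% of all promoters), the TATA box for 1 (12.4%), the nuclear receptor motif for 1 (14%) and the E-box for 0 (6.02%). Cebpa, which encodes C/EBP alpha, had 1606 ± 716 normalized counts in WT against 1470 ± 184 in Cd36KO (SD, n = 4 per group; DESeq2 adjusted p = 0.888).

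Of the 10 members, 9 could be tested, and 2 passed the DESeq2 threshold of an adjusted p under 0.05, both lower in Cd36KO. Over all 9619 genes tested, 2.95% passed, 1.53% lower and 1.42% higher. The members were chosen with earlier results of these data known, so these shares do not test the set. With edgeR, 1 member passed (Lep), where 0.143% of 9793 genes did. The log2 fold change was below 0 for 7 of the 9 members, with a median of -0.27, against a median of -0.01 and 4890 of 9619 below 0 over all genes. Among the 9 members with a mean of at least 50 normalized counts, 1 (Lep) had groups that did not overlap, which held for 10.9% of all such genes (3.96% lower in Cd36KO and 6.91% higher).

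**Figure D1:**
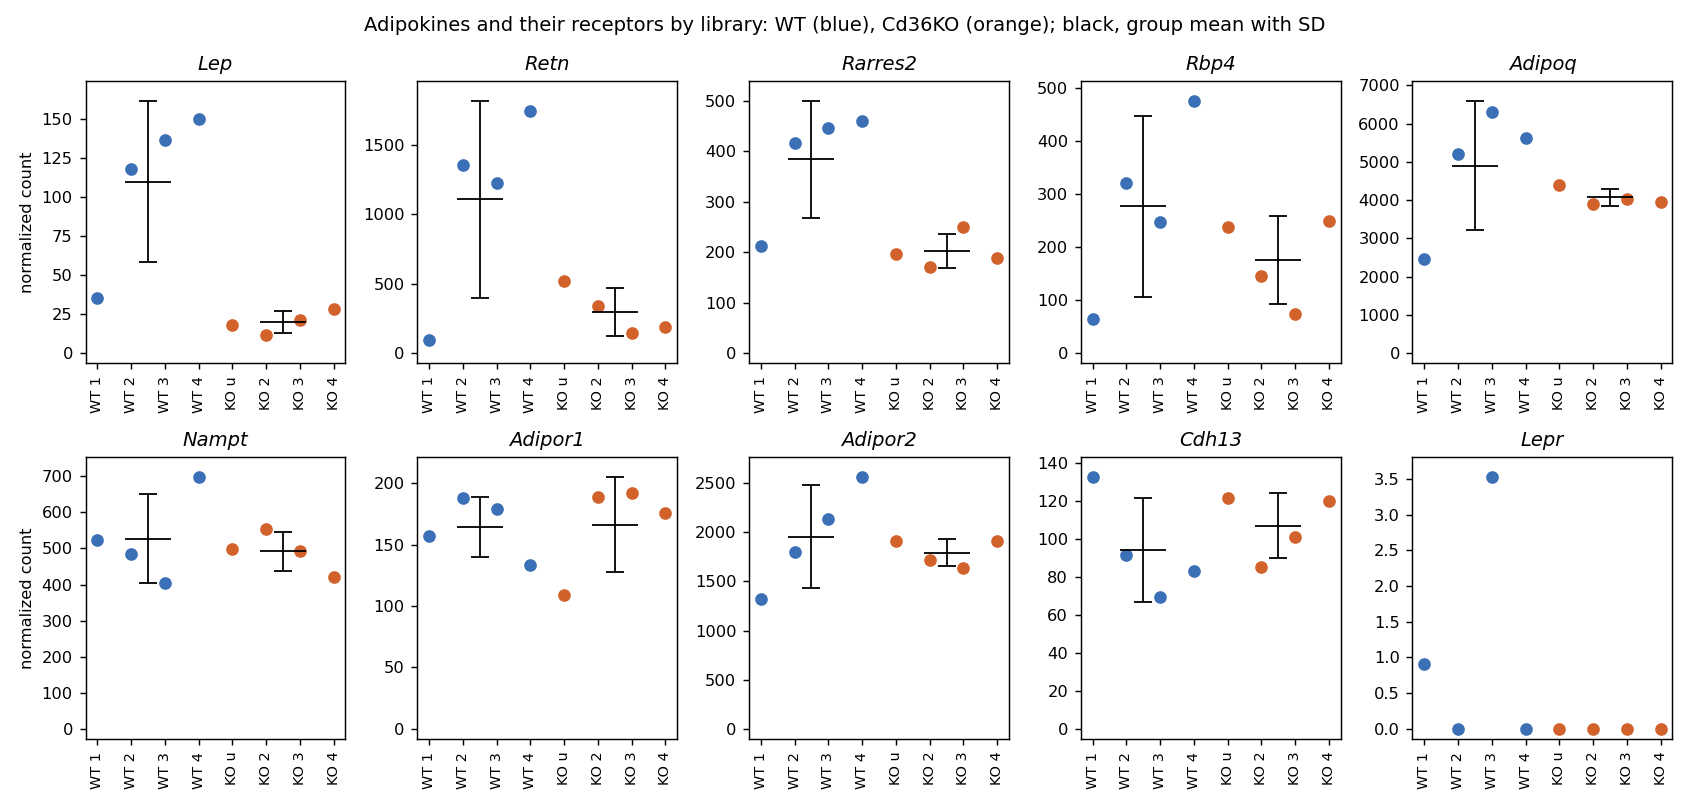
Normalized count (vertical axis, starting near 0 and scaled per gene) of each of the 10 members in each library (horizontal axis), WT in blue and Cd36KO in orange, KO u being the unnumbered library. Bars give the group mean with SD and are left out for Lepr, which had 4 counts in all. WT 1 lies below the other WT libraries for Lep, Retn, Rarres2, Rbp4, Adipoq and Adipor2.

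Lep (ENSMUSG00000059201, chromosome 6, 29060220 to 29073877, plus strand, protein-coding, on GRCm38 like all gene positions here) had 35.2, 118, 136 and 150 normalized counts in WT replicates 1 to 4. It had 17.8 in the unnumbered Cd36KO library and 11.5, 21.5 and 28.2 in replicates 2, 3 and 4. Every Cd36KO library was below every WT library, and WT replicate 1 lay nearer to the Cd36KO libraries than to the other WT libraries. The fitted log2 fold change was -2.46, or 5.50-fold higher in WT (SE 0.42, DESeq2 adjusted p = 9.59e-06, edgeR adjusted p = 0.0394). The two-sided exact permutation test on the log2 level gave p = 0.0286, the smallest that 4 against 4 libraries allow, and p = 0.0571 with any single Cd36KO library left out. Lep rested on few reads, 446 counts over the 4 WT libraries and 84 over the 4 Cd36KO libraries. In bulk tissue, fewer cells that make a transcript and less transcript per cell cannot be told apart.

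Lep stayed past the DESeq2 threshold without any single library, with log2 fold changes from -2.74 to -2.27. It did not pass in limma on the authors' log2 values (-2.29, adjusted p = 0.0818), where no gene did (1542 at an unadjusted p under 0.05). White depot markers moved with it. Their summed level was 724 to 4419 normalized counts in WT and 514 to 695 in Cd36KO without overlap, 5 of 6 tested markers fell, and Hoxc10 and Tcf21 were at 0 in every library. Hoxc8, a homeobox gene of white depots, fell from 205 ± 108 to 24.4 ± 14.4 (SD, n = 4 per group; DESeq2 adjusted p = 5.58e-08). With the mean log2 level of these markers as a covariate, the log2 fold change of Lep was -0.20 (DESeq2 adjusted p = 0.874). The covariate itself did not overlap between the groups, 4.15 to 5.72 in WT and 3.496 to 3.781 in Cd36KO. Within these libraries marker level and genotype thus cannot be told apart, in this fit or in any other with that covariate. With the muscle markers as a covariate, Lep remained at -2.70 (DESeq2 adjusted p = 0.000366).

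Lep was also read against general adipocyte content. The 8 pan-adipocyte markers summed to 34054 normalized counts in WT replicate 1 and 47120 to 62678 in WT replicates 2 to 4. In Cd36KO they summed to 38078 to 40873, so the groups overlapped only through WT replicate 1. In DESeq2 and in edgeR 0 of 8 passed (1 at an unadjusted p under 0.05 in each), and 5 had a log2 fold change below 0. Relative to the mean log2 level of these markers in the same library, Lep was lower in Cd36KO by a log2 difference of -2.18 (two-sided exact permutation p = 0.0286). Stromal markers were lower, 2041 to 2525 in WT and 1579 to 1912 in Cd36KO without overlap, with 1 of 8 past the DESeq2 test, while endothelial markers overlapped, 767 to 1222 and 868 to 1237. Brown adipocyte markers stood the other way, at 17552 to 21686 in WT and 29777 to 38947 in Cd36KO, with 3 of 10 tested past DESeq2, all higher, and 0 of 11 past edgeR (7 at an unadjusted p under 0.05). The part of the stromal and brown adipocyte markers in the Lep result was not tested. Ucp1, the uncoupling protein of thermogenesis, rose from 5347 ± 1245 to 9429 ± 2044 (SD, n = 4 per group; log2 fold change 0.82, DESeq2 adjusted p = 0.00843, edgeR adjusted p = 0.126).

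The leptin receptor gene Lepr (ENSMUSG00000057722, chromosome 4, 101717404 to 101815352, plus strand) was close to undetected. WT replicates 1 to 4 had 1, 0, 3 and 0 counts and the 4 Cd36KO libraries 0 each, where a count of 0 allows up to 3 counts per library, so a difference was not detectable at this depth. DESeq2 gave it no adjusted p. Counts were per gene, so its long and short forms were not separated.

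Of 11 genes that carry or restrain the leptin receptor signal, 10 were tested and 1 passed. Sh2b1, an adaptor that binds JAK2 and strengthens the signal, rose from 154 ± 13.4 to 221 ± 11.4 normalized counts without overlap (SD, n = 4 per group; log2 fold change 0.53, DESeq2 adjusted p = 0.0450, edgeR adjusted p = 0.138). Of 8 fits that each left out a library, Sh2b1 passed in 1, that without WT replicate 4. It did not pass with a filter of 10 counts or with no independent filtering. The call was also lost with white depot or muscle markers as a covariate, and over replicates 2 to 4 of each genotype. Jak2, the kinase bound to the receptor, had 35.3 to 50.4 normalized counts in WT against 15.6 to 25.6 in Cd36KO, also without overlap, at a log2 fold change of -0.91 (DESeq2 adjusted p = 0.102). Stat3, the transcription factor that JAK2 activates, had 302 ± 65.2 and 313 ± 61.4, and Ptpn1, a phosphatase that opposes JAK2, 115 ± 17.0 and 129 ± 27.4 (SD, n = 4 per group), neither past the test. Socs3, the feedback inhibitor induced by leptin, had 15 counts over the WT libraries and 3 over the Cd36KO libraries, too few for an adjusted p.

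Adipoq (ENSMUSG00000022878, chromosome 16, 23146536 to 23158028, plus strand) had 2458, 5212, 6294 and 5630 normalized counts in WT replicates 1 to 4. It had 4400 in the unnumbered Cd36KO library and 3904, 4038 and 3958 in replicates 2, 3 and 4. The Cd36KO libraries lay close together, below WT replicates 2 to 4 and above WT replicate 1. The log2 fold change was -0.27 (95% interval -0.74 to 0.21, DESeq2 adjusted p = 0.657). Without WT replicate 1 it was -0.49 and passed (DESeq2 adjusted p = 0.0194), so the call for Adipoq changed with that library. With the white depot covariate on all 8 libraries it passed in the other direction (1.11, DESeq2 adjusted p = 0.000835).

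The balance of the adipokines within a library does not depend on the size factor. Adipoq counts per Lep count were 69.8, 44.1, 46.1 and 37.4 in WT replicates 1 to 4. They were 247 in the unnumbered Cd36KO library and 339, 188 and 140 in replicates 2, 3 and 4. Every Cd36KO ratio was above every WT ratio, and here WT replicate 1 lay with the other WT libraries. On the log2 scale, with 1 added to each normalized count, the ratio was 5.57 ± 0.37 in WT against 7.68 ± 0.52 in Cd36KO (SD, n = 4 per group), a difference of 2.11 (two-sided exact permutation p = 0.0286, the smallest possible).

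**Figure D2:**
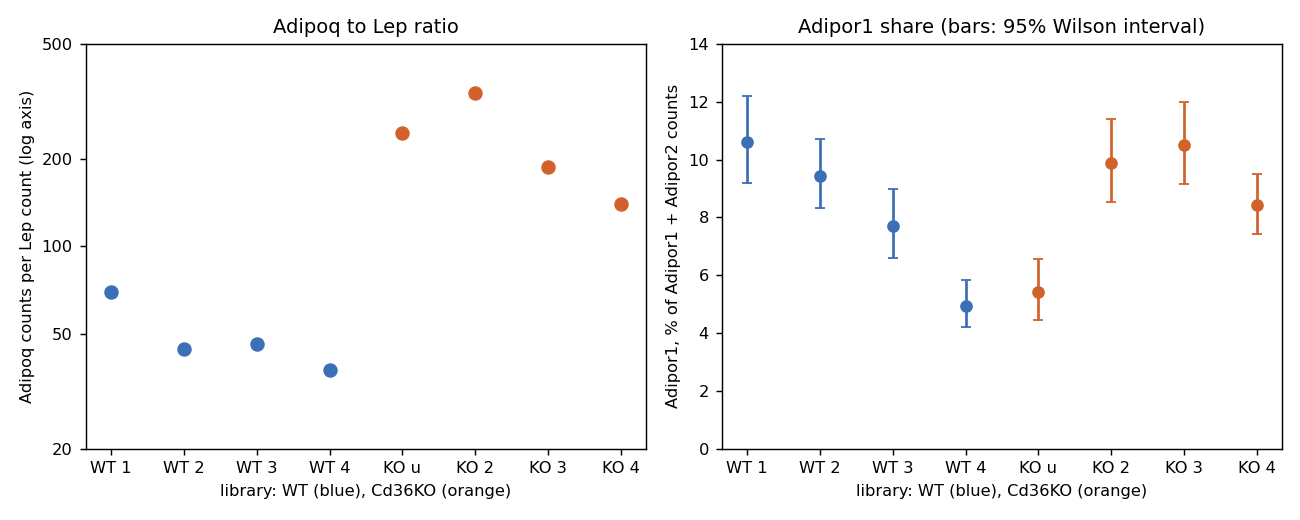
Left, normalized Adipoq counts per normalized Lep count (log axis), per library, from 37.4 to 69.8 in WT (blue) and from 140 to 339 in Cd36KO (orange). Right, Adipor1 as a percentage of Adipor1 plus Adipor2 counts per library, bars being 95% Wilson intervals, where the groups overlap.

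Proteins of the endoplasmic reticulum retain and release adiponectin multimers. Of 7 genes measured for adiponectin assembly and its transcription, 0 passed in DESeq2 or in edgeR (3 at an unadjusted p under 0.05 in each), 4 with a log2 fold change below 0. Erp44, which retains adiponectin through thiols, had 49.9 ± 19.5 normalized counts in WT against 45.9 ± 20.5 in Cd36KO (SD, n = 4 per group; DESeq2 adjusted p = 0.929).

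The adiponectin receptors overlapped between the groups. Adipor1 (ENSMUSG00000026457, chromosome 1, 134415378 to 134433351, plus strand), linked to AMPK activation, had 134 to 188 normalized counts in WT against 109 to 192 in Cd36KO, a log2 fold change of 0.02 (95% interval -0.42 to 0.46, DESeq2 adjusted p = 0.981). Adipor2 (ENSMUSG00000030168, chromosome 6, 119353150 to 119417704, minus strand), linked to PPAR alpha activity, had 1324 to 2565 in WT and 1642 to 1910 in Cd36KO, a log2 fold change of -0.13 (95% interval -0.51 to 0.26, DESeq2 adjusted p = 0.828). The intervals do not hold a 2-fold change in either direction, but with the white depot covariate Adipor2 was higher in Cd36KO and passed (0.76, DESeq2 adjusted p = 0.0383).

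Adipor1 made up 8.18% ± 2.46 of the counts of both receptors in WT and 8.55% ± 2.27 in Cd36KO (SD, n = 4 per group; two-sided exact permutation p = 0.771). Within WT, replicate 4 had 4.95% (95% Wilson interval 4.20 to 5.83) and replicate 1 had 10.6% (9.20 to 12.2), and the unnumbered Cd36KO library had 5.41% (4.46 to 6.55) against 10.5% (9.15 to 12.0) in Cd36KO replicate 3. Intervals cover counting error only, and the direction of the group difference turned without WT replicate 4 (-0.70 percentage points) or without Cd36KO replicate 2 or 3.

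Cdh13 (ENSMUSG00000031841, chromosome 8, 118283733 to 119324921, plus strand), which encodes T-cadherin, had 69.4 to 133 normalized counts in WT against 85.2 to 121 in Cd36KO. The groups overlapped throughout, with a log2 fold change of 0.18 (95% interval -0.31 to 0.67, DESeq2 adjusted p = 0.804). Of 12 genes downstream of the adiponectin receptors, all tested, 1 passed. Prkag1, a regulatory subunit of AMPK, rose from 415 ± 94.1 to 718 ± 154 normalized counts without overlap (SD, n = 4 per group; log2 fold change 0.79, DESeq2 adjusted p = 0.0218, edgeR adjusted p = 0.126), a call lost without WT replicate 2, the unnumbered Cd36KO library or Cd36KO replicate 4, over replicates 2 to 4 of each genotype, and with muscle markers as a covariate. Appl1, the adaptor that binds both receptors, had 144 ± 15.2 and 120 ± 11.7 (SD, n = 4 per group; DESeq2 adjusted p = 0.548).

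Retn (ENSMUSG00000012705, chromosome 8, 3655770 to 3660110, plus strand) had 97.5, 1356, 1226 and 1745 normalized counts in WT replicates 1 to 4. It had 521 in the unnumbered Cd36KO library and 336, 146 and 185 in replicates 2, 3 and 4. WT replicates 2 to 4 were above all Cd36KO libraries, and WT replicate 1 was below all of them. The log2 fold change was -1.90 (SE 0.81) and did not pass (DESeq2 adjusted p = 0.204). Without WT replicate 1 it was -2.28 and passed (DESeq2 adjusted p = 0.000608). With the white depot covariate it turned to 2.88 (DESeq2 adjusted p = 9.16e-06).

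Rarres2 (ENSMUSG00000009281, chromosome 6, 48569696 to 48572789, minus strand) had 213, 416, 447 and 460 normalized counts in WT replicates 1 to 4. It had 197 in the unnumbered Cd36KO library and 171, 250 and 189 in replicates 2, 3 and 4. WT replicates 2 to 4 were above all Cd36KO libraries, and WT replicate 1 lay among them. The log2 fold change was -0.93 (SE 0.25, DESeq2 adjusted p = 0.0152), but edgeR gave an adjusted p of 0.110 and the two-sided exact permutation test p = 0.0571. The call was lost without WT replicate 2 or 3, the unnumbered Cd36KO library or Cd36KO replicate 4 (DESeq2 adjusted p from 0.0631 to 0.116), and with the white depot covariate the estimate was 0.19 (DESeq2 adjusted p = 0.802). An exon of Rarres2 overlaps one of Lrrc61 on the opposite strand, which had 293 counts over 8 libraries, and the strand setting of the counting is not stated.

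Of 10 receptors and carriers proposed for chemerin, resistin and retinol-binding protein, 3 were tested in DESeq2 and 0 passed (1 at an unadjusted p under 0.05), and in edgeR 0 of 2 (both at an unadjusted p under 0.05), with Ttr at 0 in every library. Cmklr1, the signalling receptor for chemerin, had 13.5, 175, 238 and 222 normalized counts in WT replicates 1 to 4 and 41.2 to 107 in Cd36KO (log2 fold change -1.33, DESeq2 adjusted p = 0.414). Without WT replicate 1 Cmklr1 passed as lower in Cd36KO, at -1.72 (DESeq2 adjusted p = 1.21e-06), as it did over replicates 2 to 4 of each genotype, with the replicate number as a block or without, and with the white depot covariate it turned to 3.41 (DESeq2 adjusted p = 4.49e-05). Like Retn, it was lowest in WT replicate 1 and highest in the other 3 WT libraries. Cap1, proposed as a receptor for resistin, had 51.8 to 69.4 in WT against 13.4 to 44.2 in Cd36KO, without overlap (log2 fold change -0.86, DESeq2 adjusted p = 0.149, edgeR adjusted p = 0.190). Stra6, a cell surface receptor for retinol-binding protein, had 1 count over all 8 libraries.

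Rbp4 (ENSMUSG00000024990, chromosome 19, 38116629 to 38125281, minus strand) had 64.1, 321, 247 and 475 normalized counts in WT replicates 1 to 4. It had 237 in the unnumbered Cd36KO library and 145, 73.6 and 249 in replicates 2, 3 and 4. The groups overlapped, with both the lowest and the highest values in WT. The log2 fold change was -0.65 (SE 0.65, DESeq2 adjusted p = 0.700), and ran from -0.98 without WT replicate 1 to -0.26 without WT replicate 4, not past the threshold in either. Over replicates 2 to 4 of each genotype Rbp4 passed as lower, at -1.25 with the replicate number as a block (DESeq2 adjusted p = 0.000251) and -1.15 without (DESeq2 adjusted p = 0.0305). It turned to 2.40 with the white depot covariate (DESeq2 adjusted p = 0.00103).

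Nampt (ENSMUSG00000020572, chromosome 12, 32819545 to 32853349, plus strand) had 403 to 698 normalized counts in WT against 421 to 553 in Cd36KO, a log2 fold change of -0.10 (95% interval -0.48 to 0.27, DESeq2 adjusted p = 0.862). All Cd36KO values lay within the WT range. Of 12 other genes of NAD synthesis and use, 7 were tested in DESeq2 and 0 passed (1 at an unadjusted p under 0.05, 0 of 9 adjusted in edgeR), 3 with a log2 fold change below 0.

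**Figure D3:**
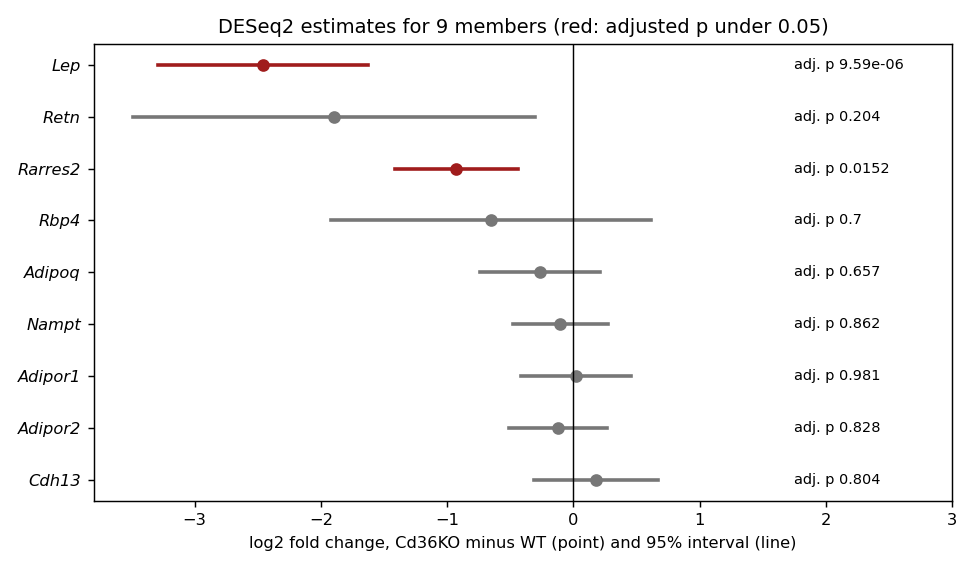
DESeq2 log2 fold change, Cd36KO minus WT (horizontal axis, points), with 95% intervals (lines), for the 9 members tested, and the adjusted p at the right. Lep (-2.46) and Rarres2 (-0.93) are in red as past the threshold, and the interval of Retn, -3.49 to -0.30, is the widest.

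Among 16 other secreted factors of fat, 7 were tested and 3 passed in DESeq2, all lower in Cd36KO. Agt, the precursor of angiotensin, fell from 37.9 ± 24.3 to 5.66 ± 3.21 normalized counts (SD, n = 4 per group; log2 fold change -2.74, DESeq2 adjusted p = 0.00220), with 8.12 in WT replicate 1 against 3.07 to 10.03 in Cd36KO, and its estimate turned to 0.24 with the white depot covariate. At these low counts DESeq2 gave Agt no adjusted p with that covariate, with TMM factors, or without WT replicate 4 or Cd36KO replicate 2 or 3. Retnla, a resistin relative made by alternatively activated macrophages, fell from 157 ± 48.6 to 80.1 ± 26.7 (SD, n = 4 per group; log2 fold change -0.97, DESeq2 adjusted p = 0.0398, edgeR adjusted p = 0.126), while the sum of the 11 macrophage markers overlapped, at 614 to 990 in WT and 671 to 975 in Cd36KO. The Retnla call was lost with no independent filtering and without WT replicate 2 or 4, the unnumbered Cd36KO library or Cd36KO replicate 3 or 4, and also with the white depot covariate and over replicates 2 to 4 of each genotype. Of 9 macrophage markers tested, 6 had a log2 fold change below 0, with a median of -0.03 over the 9. Lyz2 (0.19), C1qa (0.19) and C1qb (0.10) were above 0 and did not pass. Of the 9, 1 passed in DESeq2 and 0 in edgeR. That was Cd163, a scavenger receptor of alternatively activated macrophages, which fell from 78.1 ± 30.9 to 33.0 ± 8.09 without overlap (SD, n = 4 per group; log2 fold change -1.25, DESeq2 adjusted p = 0.0183), and Mrc1, the mannose receptor of such cells, had 68.4 ± 27.3 against 37.8 ± 10.9 (SD, n = 4 per group; DESeq2 adjusted p = 0.191). Their part in the Retnla result was not tested. Adgre1, which encodes the macrophage antigen F4/80, had 28 counts over the WT and 18 over the Cd36KO libraries. Cfd, which encodes adipsin, had 7736 to 31388 in WT and 9626 to 25765 in Cd36KO (log2 fold change -0.15, DESeq2 adjusted p = 0.931). Over the 6 lists of partner and related genes, 46 of 69 were tested and 5 passed in DESeq2 (10.9%, against 2.95% of all genes tested). Of these, 2 were higher and 3 lower (1.42% and 1.53% of all genes). In edgeR 0 passed. The lists, too, were chosen with earlier results of these data known, so these shares do not test them.

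The members were ordered by mean level per kb of exon, in normalized counts. In WT this order was Adipoq (3547 ± 1221), Retn (700 ± 448), Adipor2 (327 ± 87.9), Rbp4 (206 ± 127), Rarres2 (145 ± 43.5), Nampt (104 ± 24.6), Lep (32.8 ± 15.4), Adipor1 (32.7 ± 4.82) and Cdh13 (8.39 ± 2.43) (SD, n = 4 per group). Adipoq stood above every other member by more than their spreads, while the SDs of Retn, Adipor2 and Rbp4 overlapped, as did those of Rbp4, Rarres2 and Nampt and of Lep and Adipor1. In Cd36KO, Lep at 5.89 ± 2.08 per kb was below Cdh13 at 9.52 ± 1.53, and Retn at 188 ± 108 was below Adipor2 at 300 ± 22.7 (SD, n = 4 per group), the SDs overlapping for the latter pair. Libraries came from a commercial service named NEGEDIA Digital mRNA-seq, and where along transcripts its reads lie is not given in the sources used here, so levels per kb compare genes only roughly.

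**Figure D4:**
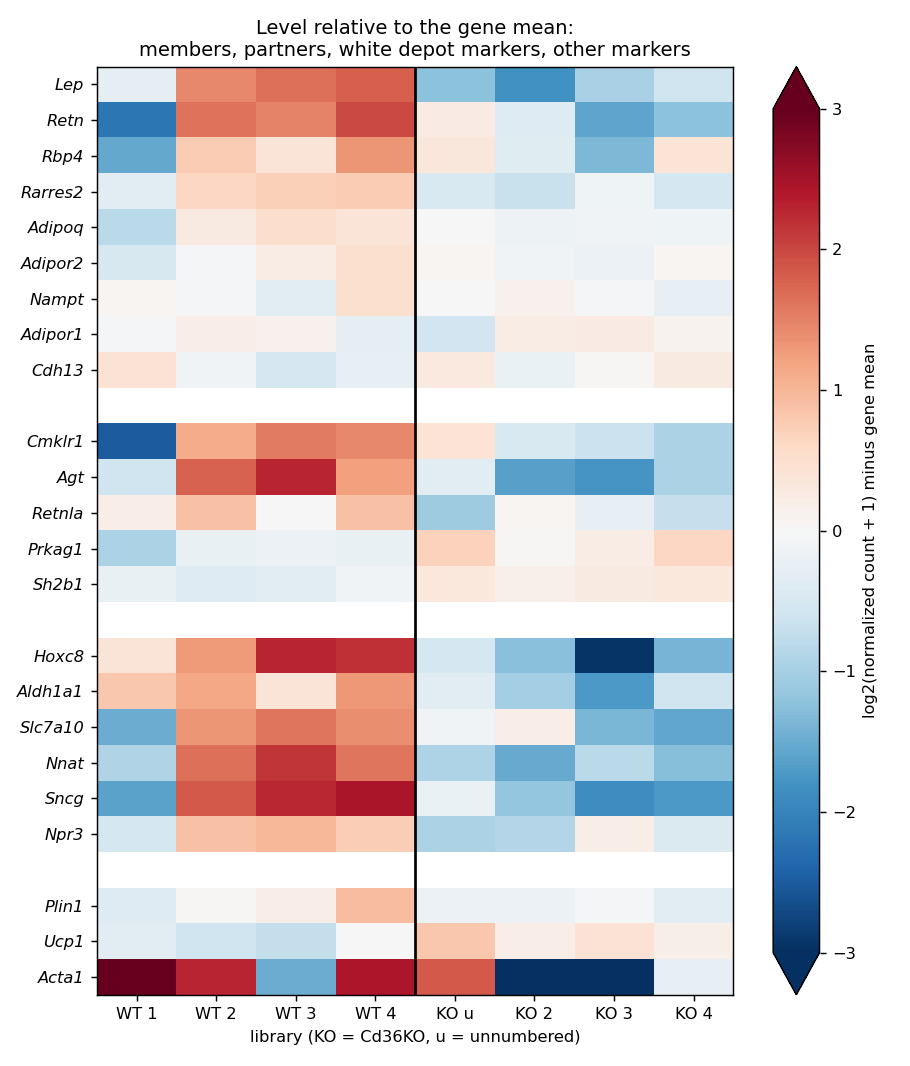
Log2(normalized count + 1) minus the gene's mean over 8 libraries (color, cut at 3 in either direction) for the 9 members with a mean of at least 50, for partners and related genes, for the 6 tested white depot markers, and for Plin1, Ucp1 and Acta1 (muscle actin). In WT 1, Retn, Rbp4 and Cmklr1 are at their lowest of the 8 libraries while Acta1 is at its highest, 9349 normalized counts.

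Retn, Rbp4, Adipoq, Rarres2, Lep and Adipor2 were lower in WT replicate 1 than in any other WT library, 6 of the 10 members. The mean of WT replicates 2 to 4 was 14.8-fold that of replicate 1 for Retn, 5.42-fold for Rbp4, 3.83-fold for Lep, 2.32-fold for Adipoq, 2.07-fold for Rarres2 and 1.64-fold for Adipor2. For Adipor1 and Nampt that ratio was 1.06 and 1.01, and for Cdh13, highest in WT replicate 1 among WT libraries, it was 0.61. Among the tested white depot markers the same ratio was 14.7 for Sncg, 7.90 for Slc7a10, 6.60 for Nnat, 3.04 for Hoxc8, 2.63 for Npr3 and 1.15 for Aldh1a1, the last not lowest in WT replicate 1, and it was 1.78 for Plin1. These 6 members were thus low in the WT library where 5 of the 6 tested white depot markers were also lowest and the summed muscle markers highest. The part of these markers in the genotype differences was tested only by the covariate fits.

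The profiles nearest to each called member were taken over 8 libraries, as the root mean square difference of log2 levels centred on each gene's mean, among 5527 other genes with a mean of at least 50 normalized counts. Nearest to Lep were Nnat (0.42), Abcd2 (0.52), Gpt2 (0.58), Adrb3 (0.59) and Dpt (0.61), where the median gene was at 1.36. Nnat is an imprinted gene and one of the white depot markers used here, Abcd2 a peroxisomal fatty acid transporter, Gpt2 a mitochondrial alanine aminotransferase, Adrb3 the adipocyte beta-adrenergic receptor, and Dpt a matrix protein of fibroblasts. Nearest to Rarres2 were Gnai1 (0.16), Col5a3 (0.18), Prnp (0.21), Tshz2 (0.23) and Csnk1e (0.23), against a median of 0.64. Adrb3 had 238 normalized counts in WT replicate 1, 901 to 1490 in the other WT libraries and 247 to 382 in Cd36KO, the layout seen for Retn, and did not pass in DESeq2 (adjusted p = 0.0614).

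**Figure D5:**
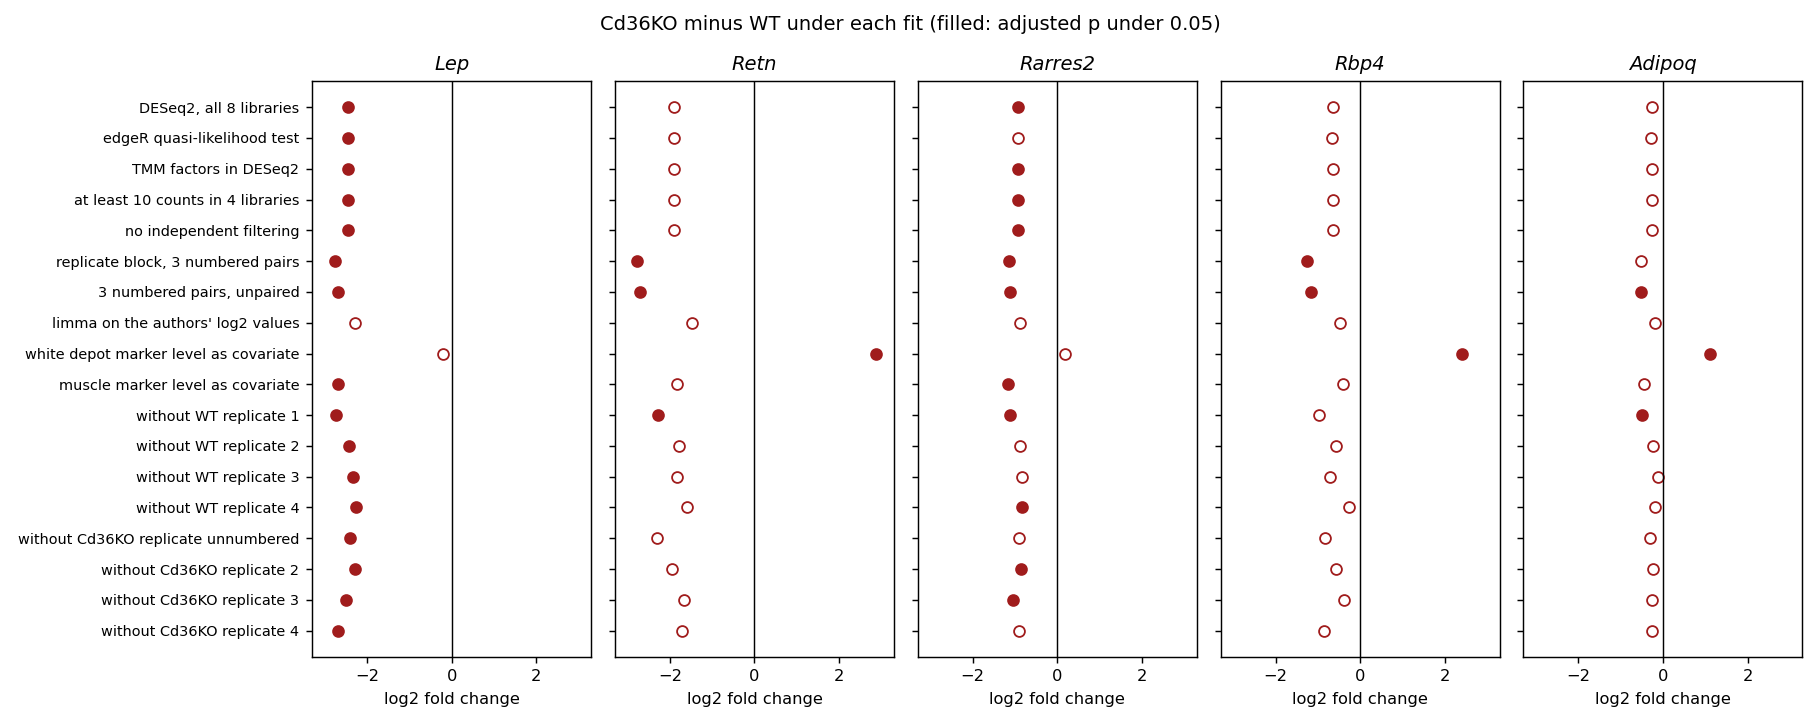
Log2 fold change, Cd36KO minus WT (horizontal axis), of Lep, Retn, Rarres2, Rbp4 and Adipoq under DESeq2 on all 8 libraries and under each alternative fit (vertical axis), filled where the adjusted p was under 0.05. Estimates stay below 0 in all fits shown except that with white depot markers as covariate, where Lep is at -0.20 and the other 4 genes are above 0.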

How the data were processed

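RNA of BAT was sequenced in bulk (4 libraries of WT and 4 of Cd36KO mice). According to the methods of the study, reads were single-end, trimming used bbduk, alignment to mm10 used STAR and counting per gene used HTSeq-count. The submitters' processing notes instead name Trimmomatic, HISAT2 and DESeq2. The deposited counts are whole numbers per gene, not normalized. The authors' second table holds log2 values, equal to log2 of the count over a size factor plus a pseudocount of 1 (largest difference 5.15e-14). The annotation release, strand setting and use of molecular identifiers are not stated.

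Groups came from the sample labels. The labels do not say which animal gave each library, so p-values measure the spread between these samples. Of 31053 gene identifiers, 31011 matched GENCODE M21 (GRCm38), and 17367 had any count. DESeq2 1.42.0 (the study's tool; Wald test, genotype only, unshrunken fold changes, Benjamini-Hochberg over all genes, threshold 0.05) was the main test and edgeR 4.0.16 (quasi-likelihood, TMM) the first alternative, in R 4.3.3. Limma 3.58.1 was run on the authors' log2 values. Single values were tested with exact two-sided permutation tests over 70 arrangements (SciPy 1.17.1) on log2(normalized count + 1). On simulated counts with 200 genes changed 3-fold, DESeq2 recovered 97.5%, and 9.30% of its calls were false (16271 genes), more than the 0.05 threshold sets. There edgeR recovered 94.0%, and 2.59% of its calls were false (9819 genes). Simulated libraries differed only by size factor, genotype and random counts, so none stood apart as WT replicate 1 does. Promoters came from RefSeq, and figures were drawn with matplotlib 3.10.9.

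Members and lists were chosen with earlier results of these data known. Genes named are the members, Cd36, list genes past the DESeq2 threshold, a fixed set of partners (Jak2, Stat3, Socs3, Ptpn1, Appl1, Erp44, Cmklr1, Stra6, Cfd) and markers (Ucp1, Plin1, Hoxc8, Acta1, Adgre1), and the 5 profiles nearest to each called member. One list gene past the threshold is not reported here. Other genes named (Cebpa, Ttr, Cap1, Cd163, Mrc1, Lyz2, C1qa, C1qb, other white depot markers, Xist, Y-linked genes, Hoxc10, Tcf21, Lrrc61) were named after their values were seen. Alternatives were edgeR, DESeq2 with TMM factors, genes with at least 10 counts in 4 libraries, no independent filtering, the replicate block, limma, white depot or muscle markers as covariate, a pseudocount of 0.5 and each library left out. Scaling to pan-adipocyte markers was chosen after seeing the data.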

Additional observations from a re-analysis of the deposited data

Results flagged for a closer look

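In 4 of 22 groups of 4 libraries tested (the members and the ratios, per genotype), 1 library lay far from the other 3 by Dixon's test of its gap to the nearest over the group's range, where chance flags about 1 in 20, or 1.10 groups. The values are log2(normalized count + 1). Lep was at 5.18 in WT replicate 1 against 6.90 to 7.24 in the other WT libraries. Retn was at 6.62 in WT replicate 1 against 10.26 to 10.77. Rarres2 was at 7.74 in WT replicate 1 against 8.70 to 8.85. Adipor1 was at 6.78 in the unnumbered Cd36KO library against 7.46 to 7.59 in the other Cd36KO libraries. The 3 WT flags fall in 1 library, which also had the highest skeletal muscle marker level, and they are not independent of each other.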

How the results depend on the processing

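Over 17 other settings, the number of members called ranged from 0 to 5 against 2. It was 1 in edgeR, 0 in limma, 4 with the replicate block over 3 numbered pairs, 5 in those 3 pairs without the block, and 4 with white depot markers as covariate, and 1 to 4 with each library left out. All genes called were 284 of 9619 tested (137 higher, 147 lower). They numbered 14 of 9793 in edgeR (4 higher, 10 lower) and 0 in limma (1542 at an unadjusted p under 0.05). With no independent filtering they were 171 of 17361 (73 higher), and with muscle markers 171 of 9623 (60 higher). White depot markers gave 581 of 5919 (480 higher) and moved the median log2 fold change of the genes tested to 0.15. The block gave 219 of 12074 (32 higher) and the same pairs without it 262 of 11431 (48 higher). Leaving out a library gave 69 to 507 in all, 20 to 328 higher and 42 to 236 lower. The 5 called partner genes, of which Agt was too low to be fitted in edgeR, in limma or with the filter of 10 counts, became 0 in edgeR and limma, 3 with that filter, 3 with no independent filtering, and 1 to 6 without a library.

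Lep was lost in limma (-2.29, adjusted p = 0.0818) and with white depot markers (-0.20), and not in the other settings, with -2.74 to -2.27 when a library was left out. Rarres2 was lost in edgeR (-0.94) and limma (-0.88), turned to 0.19 with white depot markers, and ranged from -1.13 to -0.83 without a library. Retn reached the threshold with the block (-2.77) and in the same pairs without it (-2.70), turned to 2.88 with white depot markers, and ranged from -2.31 to -1.59 without a library. Rbp4 passed with the block (-1.25) and in those pairs without it (-1.15) and turned to 2.40 with white depot markers, and ranged from -0.98 to -0.26 without a library. Adipoq passed in the unblocked pairs (-0.52), turned to 1.11 with white depot markers, and ranged from -0.49 to -0.12 without a library. With white depot markers Retn, Rbp4, Adipoq and Adipor2 (0.76) passed as higher in Cd36KO. They also turned Cdh13 (-0.50), Nampt (0.0072) and Adipor1 (-0.089), the last also turned by limma (-0.0043) and muscle markers (-0.28). Without a library Adipor1 ran from -0.068 to 0.18, Adipor2 from -0.27 to 0.032 and Nampt from -0.21 to 0.060. Relative to pan-adipocyte markers the log2 levels of Adipor1 (0.11), Adipor2 (0.030) and Nampt (0.038) turned. Without a library the log2 level differences ran from -0.099 to 0.19, -0.26 to 0.057 and -0.20 to 0.065 for these 3, and the Adipor1 share difference from -0.70 to 1.42 percentage points. The cause of these shifts was not tested. Both pair settings drop WT replicate 1 and the unnumbered Cd36KO library.

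The replicate numbers were not taken to pair the samples, since same-numbered libraries come from mice of different genotype and the correlations of their deviations were -0.13, 0.42 and 0.14 for numbers 2, 3 and 4, and 1 of the 3 correlated best with its own number. Depth limits Lepr, Socs3 and Stra6, which had too few counts for a comparison, and with 4 libraries a group the exact test cannot go below 0.0286.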
